A study of Mus musculus with 16 samples.

Results

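The RNAs of the actin and myosin machinery were followed in the protrusions and cell bodies of NIH/3T3 cells, an established line of mouse fibroblasts. The members were all RNAs of the deposited table whose gene symbol is that of an actin, an actin-related protein, a subunit of the Arp2/3 complex, a WAVE protein, a cofilin or profilin, a capping protein, a coronin, a tropomyosin, an alpha-actinin or filamin, or a myosin heavy or light chain. The rule reads gene symbols alone, and it gave 67 of 12900 RNAs. All 67 were fitted, and 5 of them (*Actg2*, *Actn3*, *Myh14*, *Myl7* and *Myo1a*) had a mean log2 CPM of 1 or less, so that few reads stand behind their values.

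The study compared 2 stably transduced lines, in each of which doxycycline switched on a beta-globin coding sequence. In the HBB line it carried the beta-globin 3' UTR, a control that is not localized, and in the Pkp4 cUTR line the mouse *Pkp4* 3' UTR, which directs RNA to protrusions and competes with endogenous RNAs. All 16 samples had the same handling, with doxycycline at 1 microgram/ml for 3 days, serum starvation, plating for 2 h on membranes with pores of 3.0 micrometres, lysophosphatidic acid (LPA) below the membrane for 1 h, and 0.3% paraformaldehyde for 10 min. Protrusions (Ps) that had grown through the pores were then collected apart from the cell bodies (CB), with 4 replicates of each fraction in each line, described as independent. The lines were made by lentiviral transduction and geneticin selection. Each construct is represented by 1 line, so a difference between the lines cannot be told apart from a difference between the constructs. RNA was counted by RNA-Seq, and levels are given as log2 of the counts per 1000000 reads (log2 CPM).

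Cells push out a protrusion by polymerizing actin against the membrane. Profilin hands actin monomers to growing filaments, the WAVE proteins switch on the Arp2/3 complex, which starts new branches on existing filaments, capping protein stops growth at filament ends, and cofilin takes old filaments apart. Tropomyosins coat filaments, alpha-actinins and filamins link them into bundles and nets, and myosin II, made of heavy chains and 2 kinds of light chain, pulls on them. Beta-actin mRNA is a classic case of an mRNA delivered to the leading edge of fibroblasts, and many actin and myosin genes are switched on by serum response factor, which binds the CArG box in their promoters.

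The CArG box is shown first because the genes of this machinery are known for it. It was searched by its exact consensus, which reads the same on both strands, in the RefSeq promoter windows of GRCm38.p6 that run from 250 bases before to 50 bases after each gene's start. Of the 67 members 57 had a window, and 7 of these (12.3%) held an exact match, against 142 of the 9065 RNAs of the table with a window (1.57%). The following 4 matches are those of a ubiquitous actin, a muscle actin and 2 light chains, written 5′ to 3′ on the strand of the gene, with the box in capitals and 10 bases on each side of it.
Actg1, chr11:120348566-120348595, minus strand: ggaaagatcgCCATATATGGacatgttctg
Acta1, chr8:123894829-123894858, minus strand: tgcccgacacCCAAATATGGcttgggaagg
Myl6, chr10:128493040-128493069, minus strand: gctcttacttCCTTATATGGgcaggaccta
Myl9, chr2:156775293-156775322, plus strand: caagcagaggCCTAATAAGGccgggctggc
Counted in bases from the start of the gene, the boxes began at −90 in *Actg1*, −73 in *Acta1*, −50 in *Myl6* and −161 in *Myl9*. The other 3 matches were in the windows of *Arpc4*, *Myl7* and *Myo1e*. The window of *Acta2* held no exact match, which says only that these letters are not in that window. The 7 genes had log2 fold changes of Ps over CB from −0.14 (*Myo1e*) to 0.83 (*Myl7*) in the HBB line.

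The libraries held 18660287 to 31260831 reads in the table's RNAs, and 3 reads correspond to 0.0890 to 0.176 CPM. The authors' scaling multiplied the library sizes of Ps samples by 0.828 to 0.974 and those of CB samples by 1.07 to 1.11. Replicate 4 of the cell bodies stood apart in both lines, with first principal component scores of −23.4 (HBB) and −0.97 (Pkp4 cUTR) against −27.7 to −47.5 in the other 6 CB samples. Of the fibroblast markers 8 of 10 were in the table, with a summed level of 25953 to 31538 CPM in CB and 19272 to 22555 CPM in Ps. *Vim* and *S100a4* went against the sum in both lines, with means of 6535 and 4313 CPM in HBB Ps and 4454 and 3006 CPM in HBB CB. Markers of other cells summed to 155 to 192 CPM in the HBB line and 228 to 285 CPM in the Pkp4 cUTR line for epithelium (3 of 6 in the table), 42.0 to 54.4 CPM for leukocytes (3 of 6) and 0.454 to 1.87 CPM for endothelium (2 of 4). Of 10 skeletal and cardiac muscle markers 3 were in the table, at a sum of 31.9 to 53.2 CPM in CB and 54.0 to 88.6 CPM in Ps. The 5 nuclear RNAs of a list of 9 that were in the table, among them *Neat1* and *Malat1*, had a summed level of 493 to 740 CPM in CB and 179 to 335 CPM in Ps. Most of that sum was *Neat1*, and *Tug1* (16.8 CPM in HBB Ps, 13.4 in HBB CB) and *Mirg* (2.61 and 1.65) were higher in Ps in both lines. The part of these differences in the results that follow was not tested. Cells were pooled in each sample, so fewer cells and less RNA per cell cannot be told apart.

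In both lines more members were higher in protrusions than lower. In the HBB line 37 of the 67 members were called higher in Ps than in CB (55.2%, against 28.3% of all RNAs) and 11 lower (16.4%, against 28.9%), at an adjusted p under 0.05 in limma with the Benjamini-Hochberg adjustment over all 12900 RNAs. In the Pkp4 cUTR line 34 were called higher (50.7%, against 28.2%) and 11 lower (16.4%, against 28.5%). The median log2 fold change was 0.33 and 0.25 over the members and 0.01 in each line over all RNAs. Of the members 32 were called higher in both lines, 9 lower in both, none in opposite directions, and 15 in neither. The changes were small. A fold above 2 together with p under 0.05 before adjustment was rare, and only *Myl6b* was enriched in protrusions of the HBB line (1.49%, against 4.54% of all RNAs), and *Myl6b* and the weakly expressed *Myl7* in the Pkp4 cUTR line (2.99%, against 5.07%).

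These directions rest on how the libraries were scaled. With reads scaled to each sample's total, the median of all RNAs moved to −0.23 in the HBB line and −0.25 in the Pkp4 cUTR line, and the calls became 15 higher and 22 lower, and 10 higher and 22 lower. Over all RNAs the same scaling gave 1940 higher and 5614 lower in the HBB line. Relative to the median of all RNAs, the members' median was 0.32 (HBB) and 0.24 (Pkp4 cUTR) with either scaling. In unscaled reads the 67 RNAs together took 1.72% ± 0.029 (SD, n = 4) of the reads of HBB protrusions and 1.84% ± 0.038 of those of HBB cell bodies. "Higher" and "lower" below therefore mean relative to the authors' scaling, in which the typical RNA stays level. Scaling to totals turned 5 members from above to below 0 in the HBB line (*Actb*, *Actn3*, *Actn4*, *Actr10* and *Tpm3*), and 13 in the Pkp4 cUTR line, namely these 5 with *Acta2*, *Arpc4*, *Cfl1*, *Coro1a*, *Coro1c*, *Myl4*, *Myo18a* and *Pfn1*. Of these, *Actr10* (HBB), *Tpm3* (both lines), *Cfl1*, *Coro1c* and *Pfn1* (Pkp4 cUTR) were called higher under the authors' scaling. Quantile normalization turned *Actb*, *Cfl1* and *Pfn1* below 0 in both lines and *Actn3* and *Actn4* in the HBB line, and it turned the uncalled *Myo10* above 0 in the Pkp4 cUTR line. Median centring turned the uncalled *Actr1a* above 0 in both lines and *Myo10* and *Myo1h* in the Pkp4 cUTR line. Between the lines, no called member turned under these 3 scalings. A value with ± is a log2 fold change with its SE unless another quantity is named, and where 2 are given the HBB line comes first.

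**Figure D1:**
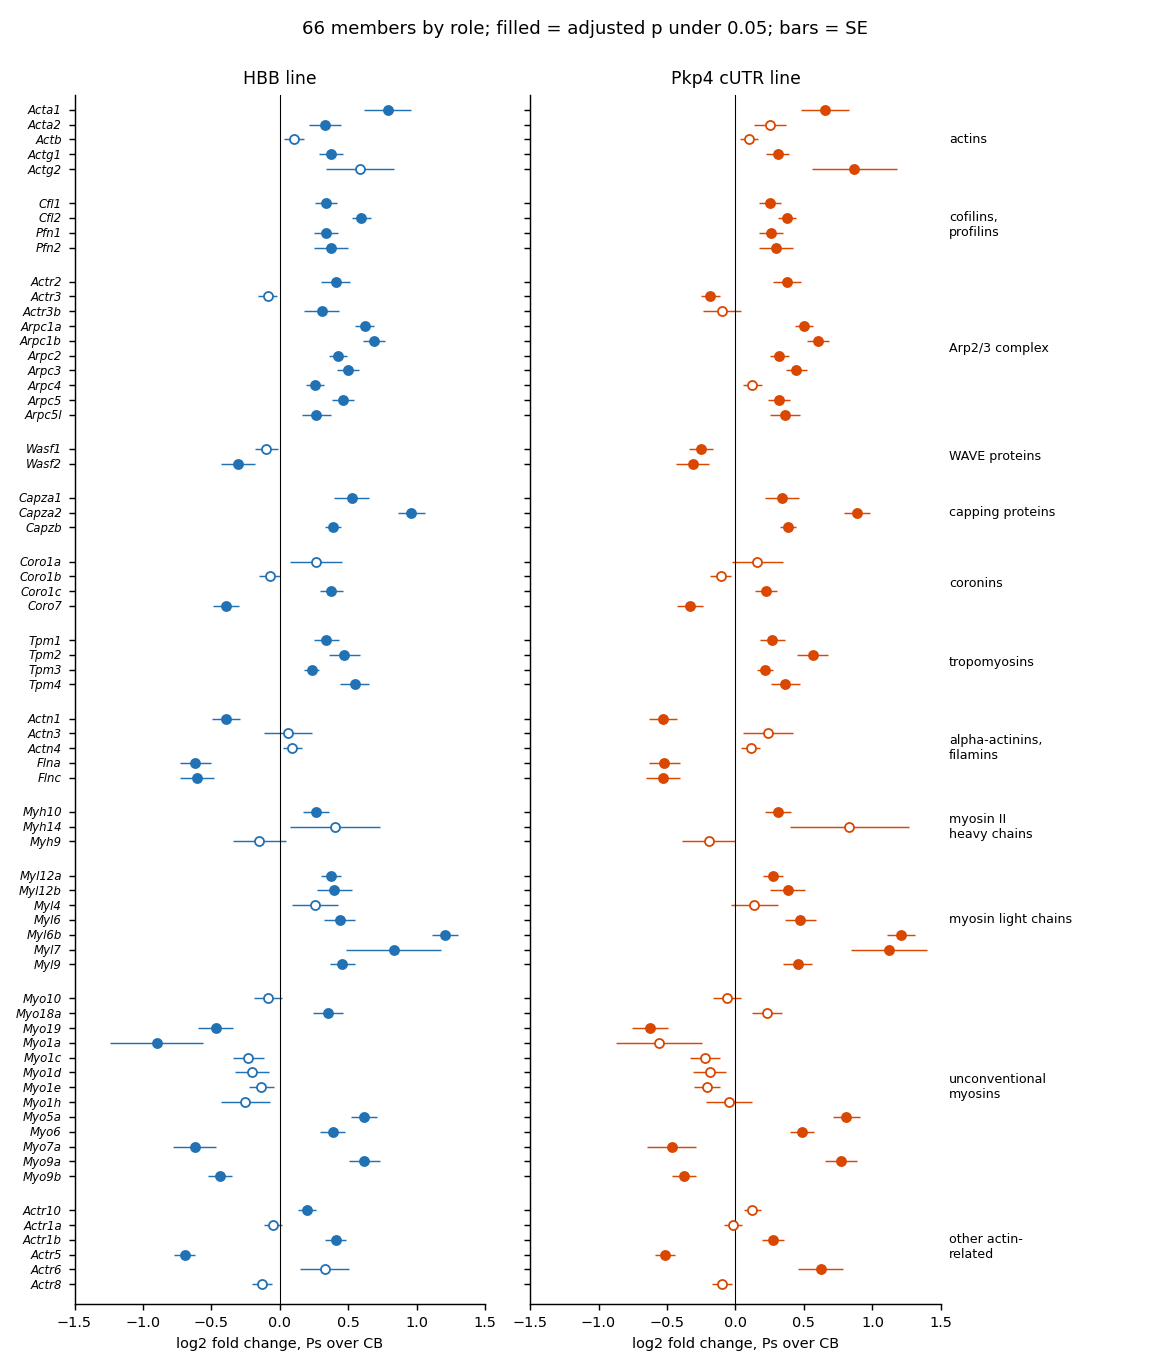
Log2 fold change of protrusions over cell bodies for 66 members, ordered by role, in the HBB line (left) and the Pkp4 cUTR line (right). Points are limma estimates and bars their standard errors, and filled points have an adjusted p under 0.05. Cofilins and profilins, capping proteins and tropomyosins lie above 0 in both lines, and *Flna*, *Flnc* and *Actn1* lie below 0, under the authors' scaling. Under another scaling 13 members turn below 0 in 1 or both lines, among them *Cfl1*, *Pfn1*, *Tpm3*, *Coro1c* and *Actr10*. These are filled where they turn, with the exception of *Actr10* in the Pkp4 cUTR line, which is open.

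Of the ubiquitous actins, *Actb*, which encodes beta-actin, had the highest level per kb of merged exon among the members, at 857 ± 52.6 CPM per kb in HBB Ps and 797 ± 26.4 in HBB CB (SD, n = 4). Its log2 CPM was 11.22, 11.04, 11.25 and 11.14 in the HBB Ps samples and 11.07, 11.00, 11.06 and 11.11 in the HBB CB samples. It was 11.03, 10.97, 11.04 and 10.84 in Pkp4 cUTR Ps and 10.90, 10.90, 10.87 and 10.80 in Pkp4 cUTR CB. The fractions overlapped in both lines, and the log2 fold change of 0.10 ± 0.07 (SE, adjusted p = 0.218) in the HBB line and 0.10 ± 0.07 (adjusted p = 0.229) in the Pkp4 cUTR line did not pass. The direction depended on the scaling, since scaling to totals gave −0.13 and −0.16 and quantile normalization −0.64 and −0.56, all called lower.

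*Actg1*, which encodes gamma-actin and has a nearly identical coding sequence, was higher in protrusions. Its log2 CPM was 10.12, 10.01, 10.30 and 10.41 in HBB Ps against 9.85, 9.83, 9.78 and 9.88 in HBB CB. Pkp4 cUTR samples were at 9.98, 9.86, 10.11 and 10.13 in Ps against 9.56, 9.79, 9.74 and 9.75 in CB. No Ps sample fell below a CB sample of its line, and the log2 fold changes were 0.38 ± 0.09 (adjusted p = 0.0013) and 0.31 ± 0.09 (adjusted p = 0.00572). They were 0.14 and 0.04 when reads were scaled to totals and 0.08 and 0.11 under quantile normalization, none of which passed. Reads that map to both copies could have been divided between them in counting, so the values of the pair are uncertain.

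Of the muscle actins, *Acta1* (skeletal) rose in protrusions of both lines by 0.79 ± 0.17 and 0.65 ± 0.18 (adjusted p = 0.000813 and 0.00444), from 53 to 100 reads a sample. *Actg2* (visceral smooth muscle), one of the weakly expressed members, gave 0.59 ± 0.25 (adjusted p = 0.0533) and 0.87 ± 0.31 (adjusted p = 0.0233), and its second call was lost without Pkp4 cUTR CB 1 (0.0583), CB 2 (0.0950) or Ps 3 (0.0770). *Acta2* (smooth muscle) rose in the HBB line by 0.33 ± 0.12 (adjusted p = 0.025) and gave 0.25 ± 0.12 (adjusted p = 0.0802) in the Pkp4 cUTR line. The call of *Acta2* in the HBB line was lost without any of 4 libraries, HBB CB 1 (adjusted p = 0.0696), HBB CB 2 (0.0687), HBB Ps 3 (0.103) or HBB Ps 4 (0.0703).

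All 4 cofilins and profilins rose in protrusions of both lines, against 28.3% (HBB) and 28.2% (Pkp4 cUTR) of all RNAs. *Cfl2*, the muscle-type cofilin, changed most, with log2 CPM of 6.74, 6.74, 6.91 and 6.69 in HBB Ps and 6.12, 6.29, 6.11 and 6.18 in HBB CB. The other line was at 6.70, 6.61, 6.72 and 6.77 in Ps and 6.28, 6.31, 6.27 and 6.43 in CB. The fractions did not overlap, and the log2 fold change was 0.59 ± 0.07 (adjusted p = 8.86e-07) in the HBB line and 0.38 ± 0.07 (adjusted p = 0.000133) in the Pkp4 cUTR line. The abundant *Cfl1* rose by 0.34 ± 0.08 and 0.25 ± 0.08 and the abundant *Pfn1* by 0.34 ± 0.09 and 0.26 ± 0.09 (adjusted p from 0.00151 to 0.0149). For both, the direction turned under quantile normalization, to −0.22 and −0.28 for *Cfl1* and to −0.08 and −0.06 for *Pfn1*. In the Pkp4 cUTR line both also came out just below 0, uncalled, with reads scaled to totals. *Pfn2* rose by 0.37 ± 0.12 and 0.29 ± 0.12 (adjusted p = 0.0162 and 0.0486), a call that did not hold in the HBB line without HBB CB 4 (adjusted p = 0.0532) and in the Pkp4 cUTR line failed in 10 of the 16 fits that each left out 1 library (adjusted p up to 0.176). *Pfn1* in the Pkp4 cUTR line lost its call without Pkp4 cUTR Ps 3 (adjusted p = 0.0565).

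The Arp2/3 complex is built of 7 kinds of subunit, ARP2, ARP3 and ARPC1 to ARPC5, and is represented by 10 RNAs. In the HBB line 9 rose and 0 fell, where 28.3% of all RNAs rose and 28.9% fell. In the Pkp4 cUTR line 7 rose and 1 fell, where 28.2% of all RNAs rose and 28.5% fell. With reads scaled to totals these counts became 5 and 1, and 3 and 2. Over all RNAs in the HBB line, lower calls outnumbered higher ones under that scaling. The ARPC1 subunit RNAs changed most. *Arpc1b* was at 9.23, 9.15, 9.48 and 9.25 log2 CPM in HBB Ps and 8.65, 8.55, 8.69 and 8.47 in HBB CB, and *Arpc1a* rose alongside it by 0.62 ± 0.07 and 0.50 ± 0.07 in the lines. In the Pkp4 cUTR line *Arpc1b* was at 9.20, 9.16, 9.36 and 9.02 in Ps and 8.62, 8.60, 8.53 and 8.57 in CB. Each Ps sample was above each CB sample, with a log2 fold change of 0.69 ± 0.08 (a fold of 1.61, adjusted p = 1.57e-06) and 0.60 ± 0.08 (a fold of 1.52, adjusted p = 7.59e-06). The exons of *Arpc1b* overlap those of *Pdap1* on the other strand by 931 bases.

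Of the 2 subunits that carry the actin-like fold, *Actr2*, which encodes ARP2, was at 5.18, 5.41, 4.98 and 5.25 log2 CPM in HBB Ps against 5.00, 4.84, 4.71 and 4.65 in HBB CB. In Pkp4 cUTR samples the level was 5.21, 5.47, 5.31 and 5.40 in Ps against 5.11, 4.93, 4.73 and 5.11 in CB. The fractions overlapped in the HBB line and not in the other, and *Actr2* rose by 0.41 ± 0.11 (adjusted p = 0.003) and 0.38 ± 0.10 (adjusted p = 0.00508). *Actr3*, which encodes ARP3, was at 7.17, 7.35, 7.21 and 7.32 in HBB Ps against 7.33, 7.45, 7.24 and 7.40 in HBB CB. Pkp4 cUTR samples were at 7.29, 7.35, 7.14 and 7.42 in Ps against 7.44, 7.53, 7.46 and 7.50 in CB. Its fold changes were −0.09 ± 0.07 (adjusted p = 0.286), which did not pass, and −0.18 ± 0.07 (adjusted p = 0.0328), a fall whose call was lost without Pkp4 cUTR CB 2 (0.0812), CB 4 (0.0518), Ps 1 (0.0583) or Ps 3 (0.123).

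Among the other subunits, *Arpc3* rose by 0.50 ± 0.08 and 0.44 ± 0.08, *Arpc2* by 0.42 ± 0.07 and 0.32 ± 0.07, and *Arpc5* by 0.46 ± 0.08 and 0.32 ± 0.08 in the HBB and Pkp4 cUTR lines (adjusted p from 3.12e-05 to 0.00245). *Arpc5l*, its paralog, rose by 0.27 ± 0.11 (adjusted p = 0.0407) and 0.36 ± 0.11 (adjusted p = 0.00779), the first of which was lost in 6 of the 16 fits that each left out 1 library, all of them HBB libraries (adjusted p up to 0.120). *Arpc4* rose in the HBB line by 0.26 ± 0.07 (adjusted p = 0.00376), with 0.12 ± 0.07 (adjusted p = 0.131) in the Pkp4 cUTR line, and the difference between these, log2(Diff FC), was −0.13 ± 0.10 (unadjusted p = 0.186). *Actr3b*, the second gene for ARP3, gave 0.31 ± 0.13 (adjusted p = 0.0468) and −0.10 ± 0.14 (adjusted p = 0.549) from 35 to 107 reads a sample, and its call failed in 10 of those 16 fits (adjusted p up to 0.133).

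The RNAs of the WAVE proteins, which activate the complex, were not called higher in either line. *Wasf2*, the WAVE protein of most cell types, was at 6.93, 6.96, 6.97 and 6.94 log2 CPM in HBB Ps and 7.27, 7.35, 7.30 and 7.10 in HBB CB. It fell in both lines, at −0.31 ± 0.12 and −0.31 ± 0.12 (adjusted p = 0.0388 and 0.0362). The call in the HBB line was lost without any 1 of 7 of the 8 HBB libraries (adjusted p up to 0.0950), the exception being HBB CB 4, and that in the Pkp4 cUTR line without Pkp4 cUTR CB 2 (0.123), CB 3 (0.140), Ps 2 (0.0705) or Ps 3 (0.151). Median centring also ended both, at −0.24 and −0.24. *Wasf1*, at a lower level, gave −0.10 ± 0.09 (adjusted p = 0.347) and −0.25 ± 0.09 (adjusted p = 0.0196), a fall in the second line that was lost without Pkp4 cUTR CB 2 (0.0672).

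**Figure D2:**
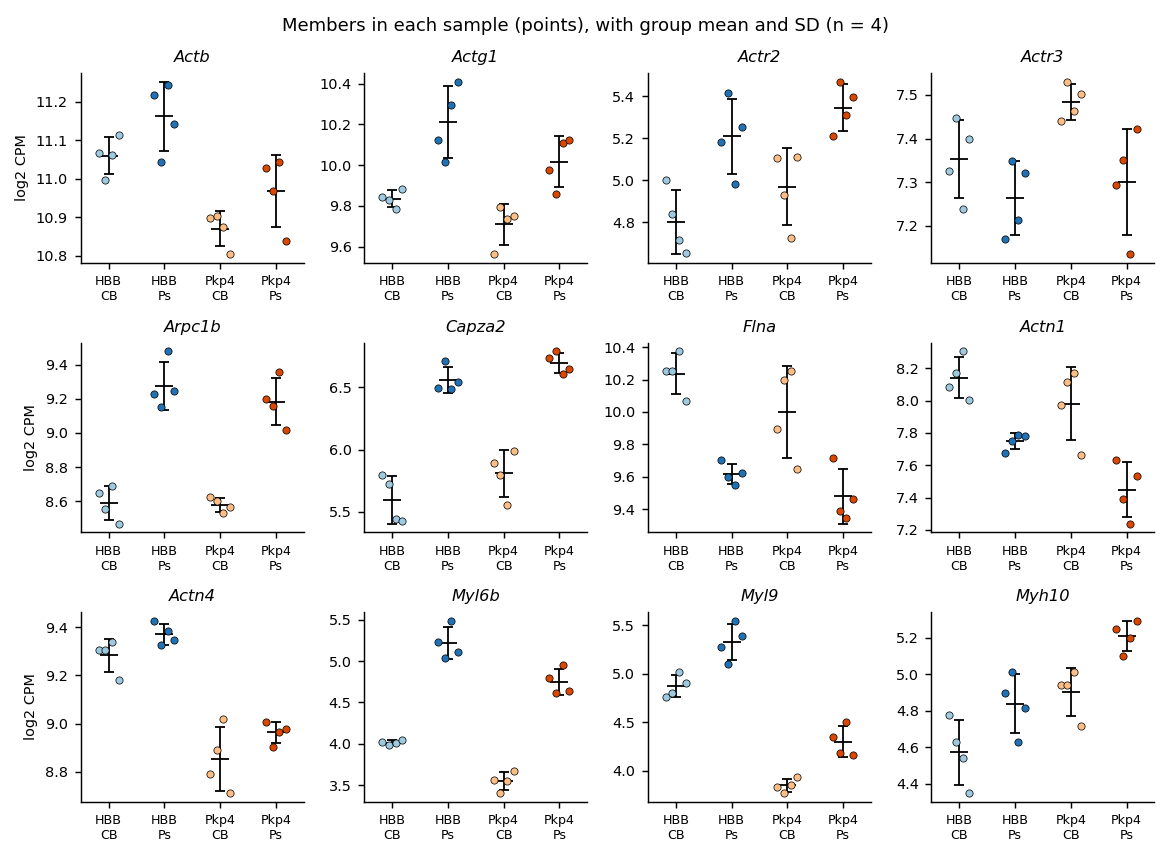
Log2 CPM of 12 members in each of the 16 samples (points) by line and fraction, with the mean and SD of each group of 4. The vertical axes differ between panels and do not start at 0. *Capza2* and *Arpc1b* separate by fraction and not by line, *Actn4* by line and not by fraction, and *Myl6b* and *Myl9* by both.

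All 3 capping protein RNAs rose in both lines, against 28.3% (HBB) and 28.2% (Pkp4 cUTR) of all RNAs. *Capza2*, an alpha subunit, was at 6.49, 6.71, 6.49 and 6.54 log2 CPM in HBB Ps and 5.80, 5.72, 5.44 and 5.42 in HBB CB. The other line was at 6.74, 6.79, 6.61 and 6.65 in Ps and 5.89, 5.80, 5.56 and 5.99 in CB. The gap between fractions was wider than the spread within them, with a log2 fold change of 0.96 ± 0.10 (a fold of 1.95, adjusted p = 2.84e-07) and 0.89 ± 0.10 (a fold of 1.85, adjusted p = 8.48e-07). *Capzb*, the beta subunit with which every alpha subunit pairs, rose by 0.39 ± 0.06 and 0.39 ± 0.06 (adjusted p = 2.1e-05 and 2.56e-05). *Capza1*, the other alpha subunit, rose by 0.52 ± 0.13 (adjusted p = 0.00163) and 0.34 ± 0.13 (adjusted p = 0.0296), and the second call was lost without Pkp4 cUTR CB 3 (0.0754), CB 4 (0.0956), Ps 1 (0.0859) or Ps 4 (0.0854). With reads scaled to totals *Capza2* was still called higher in both lines, at 0.72 and 0.62.

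Of the coronins, which oppose branching and help turn it over, *Coro1c* rose by 0.37 ± 0.08 (adjusted p = 0.000809) and 0.22 ± 0.08 (adjusted p = 0.0268). In the Pkp4 cUTR line that rise was lost without Pkp4 cUTR CB 4 (0.103) or Ps 1 (0.0990) and turned to −0.04 with reads scaled to totals. *Coro7*, a coronin of the Golgi, fell, at −0.40 ± 0.10 and −0.33 ± 0.09 (adjusted p = 0.00178 and 0.0063). *Coro1b*, the most abundant, gave −0.08 ± 0.08 and −0.11 ± 0.08 and *Coro1a* 0.26 ± 0.19 and 0.16 ± 0.18, none of which passed (adjusted p from 0.239 to 0.472).

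All 4 tropomyosin RNAs rose in both lines, with log2 fold changes of 0.23 to 0.55 in the HBB line and 0.22 to 0.56 in the Pkp4 cUTR line. Of all RNAs 28.3% rose in the HBB line and 28.2% in the Pkp4 cUTR line. *Tpm2* was at 7.32, 7.18, 7.49 and 7.28 log2 CPM in HBB Ps and 6.82, 6.70, 6.95 and 6.93 in HBB CB, and it rose by 0.47 ± 0.11 (adjusted p = 0.00168). In the Pkp4 cUTR line it rose by 0.56 ± 0.11 (adjusted p = 0.000375). *Tpm4* rose by 0.55 ± 0.11 and 0.36 ± 0.11 (adjusted p = 0.00029 and 0.00742) and *Tpm1* by 0.34 ± 0.09 and 0.27 ± 0.09 (adjusted p = 0.00405 and 0.0172). The call of *Tpm1* in the Pkp4 cUTR line was lost without Pkp4 cUTR CB 3 (0.0735), Ps 1 (0.0528) or Ps 2 (0.0618). *Tpm3* rose least, by 0.23 ± 0.06 and 0.22 ± 0.06 (adjusted p = 0.00166 and 0.00291), and with reads scaled to totals it turned to −0.01 and −0.05, neither of them called. These genes make many isoforms from alternative exons, which values per gene do not separate.

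Of the 5 alpha-actinins and filamins described here, 0 rose and 3 fell in each line. Of all RNAs 28.3% (HBB) and 28.2% (Pkp4 cUTR) rose, and 28.9% and 28.5% fell. *Flna*, the most abundant filamin, was at 9.70, 9.60, 9.55 and 9.62 log2 CPM in HBB Ps against 10.25, 10.25, 10.37 and 10.07 in HBB CB. In Pkp4 cUTR samples the level was 9.72, 9.39, 9.34 and 9.46 in Ps against 9.89, 10.20, 10.25 and 9.65 in CB. CB replicate 4 was the lowest cell-body sample in each line, and in the Pkp4 cUTR line it lay below Ps replicate 1. The log2 fold change was −0.62 ± 0.11 (adjusted p = 0.000169) and −0.52 ± 0.11 (adjusted p = 0.000818).

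*Flnc*, the filamin best known from muscle, fell, at −0.60 ± 0.12 and −0.53 ± 0.12 (adjusted p = 0.000451 and 0.00128).

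Of the alpha-actinins of non-muscle cells, *Actn1* was at 7.68, 7.75, 7.79 and 7.78 log2 CPM in HBB Ps against 8.09, 8.17, 8.30 and 8.01 in HBB CB. Pkp4 cUTR samples were at 7.63, 7.39, 7.24 and 7.53 in Ps against 7.97, 8.12, 8.17 and 7.67 in CB. It fell, at −0.39 ± 0.10 (adjusted p = 0.00328) and −0.53 ± 0.10 (adjusted p = 0.000256), with every Ps sample below every CB sample. *Actn4* was at 9.43, 9.33, 9.39 and 9.35 in HBB Ps against 9.31, 9.31, 9.34 and 9.18 in HBB CB. Its log2 fold changes of 0.09 ± 0.07 and 0.11 ± 0.07 did not pass (adjusted p = 0.284 and 0.175), and they turned to −0.15 and −0.15 with reads scaled to totals and to −0.10 in the HBB line under quantile normalization. *Actn3*, the fast-muscle form, was read 29 to 66 times a sample and gave 0.06 ± 0.17 and 0.24 ± 0.18.

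Of the heavy chains of non-muscle myosin II, *Myh9* is the abundant one in these cells, and *Myh10* and *Myh14* were far lower. Per kb of exon, *Myh9* was at 93.4 CPM in HBB CB, in contrast to the 0.0598 CPM per kb of *Myh14*, which had 3 to 18 reads a sample. *Myh9* was at 10.23, 10.09, 10.02 and 9.93 log2 CPM in HBB Ps against 10.43, 10.32, 10.30 and 9.83 in HBB CB. The other line was at 10.24, 9.75, 9.26 and 9.75 in Ps against 10.02, 10.29, 10.13 and 9.35 in CB. The samples of a group spread widely, and the log2 fold changes of −0.15 ± 0.19 and −0.20 ± 0.19 did not pass (adjusted p = 0.526 and 0.392). Without the CB libraries numbered 4 the change in the Pkp4 cUTR line was −0.40 (adjusted p = 0.0276), and quantile normalization gave −0.58 (adjusted p = 0.0311) in the HBB line. *Myh10* rose by 0.26 ± 0.10 (adjusted p = 0.0282) and 0.31 ± 0.09 (adjusted p = 0.0102). In the HBB line its call was lost without HBB CB 3 (0.0648), CB 4 (0.0916), Ps 1 (0.0695) or Ps 2 (0.101).

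The light chains were higher in protrusions, with 6 of 7 called higher and 0 lower in each line. Of all RNAs 28.3% (HBB) and 28.2% (Pkp4 cUTR) were called higher, and 28.9% and 28.5% lower. With reads scaled to totals, 2 of 7 were called higher in each line. Over all RNAs in the HBB line, lower calls outnumbered higher ones under that scaling. *Myl6b*, an essential light chain, had the largest change of any member with a mean log2 CPM above 1, and its log2 CPM was 5.24, 5.04, 5.49 and 5.10 in HBB Ps against 4.02, 3.98, 4.01 and 4.04 in HBB CB. In Pkp4 cUTR samples the level was 4.79, 4.61, 4.96 and 4.64 in Ps against 3.57, 3.40, 3.55 and 3.67 in CB. The fractions lay well apart in both lines, with log2 fold changes of 1.203 ± 0.10 (a fold of 2.30, adjusted p = 2.1e-08) and 1.21 ± 0.10 (a fold of 2.31, adjusted p = 6.9e-08). *Myl6*, the abundant essential light chain and its neighbour in the family, rose by 0.44 ± 0.11 and 0.47 ± 0.11 (adjusted p = 0.00336 and 0.00185).

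The 3 regulatory light chains of non-muscle and smooth muscle myosin II also rose. *Myl12a* rose by 0.37 ± 0.07 and 0.27 ± 0.07 (adjusted p = 0.00033 and 0.00399), *Myl12b* by 0.40 ± 0.13 and 0.38 ± 0.13 (adjusted p = 0.0128 and 0.0178), and *Myl9* by 0.45 ± 0.09 and 0.45 ± 0.11 (adjusted p = 0.000406 and 0.00132). The call of *Myl12b* in the Pkp4 cUTR line was lost without Pkp4 cUTR CB 3 (0.0519), Ps 2 (0.0603) or Ps 3 (0.0526). *Myl12a* and *Myl12b* are near-identical neighbours, so reads could have been divided between them. The annotation also holds a second gene under the symbol *Myl12b*, whose exons overlap those of the first by 739 bases, and since the table gives the symbol alone, which of the 2 it counts is uncertain. Of the heart light chains, *Myl7*, with 5 to 27 reads a sample, gave 0.83 ± 0.35 (adjusted p = 0.0493) and 1.12 ± 0.28 (adjusted p = 0.00243), and the first call failed in 11 of the 16 fits that each left out 1 library. *Myl4* gave 0.25 ± 0.17 and 0.14 ± 0.17, which did not pass (adjusted p = 0.204 and 0.502).

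The 13 unconventional myosins, motors that mostly carry cargo or tether membranes, were called in both directions. In the HBB line 4 were higher and 4 lower, near the shares of all RNAs (28.3% and 28.9%). In the Pkp4 cUTR line 3 were higher and 3 lower, where the shares of all RNAs were 28.2% and 28.5%. With reads scaled to totals the counts were 2 and 9, and 2 and 8. Under that scaling lower calls also outnumbered higher ones over all RNAs in the HBB line. *Myo5a*, the motor that carries melanosomes and other vesicles along actin, was at 4.92, 5.01, 5.01 and 5.05 log2 CPM in HBB Ps against 4.63, 4.24, 4.45 and 4.19 in HBB CB. Pkp4 cUTR samples were at 4.95, 5.18, 4.94 and 5.16 in Ps against 4.22, 4.17, 4.17 and 4.43 in CB. It rose by 0.61 ± 0.10 (adjusted p = 2.89e-05) and 0.81 ± 0.10 (adjusted p = 1.99e-06), and the fractions did not overlap in either line. *Myo6*, the motor that moves towards the pointed end of filaments, rose by 0.38 ± 0.09 and 0.49 ± 0.09 (adjusted p = 0.00195 and 0.000201).

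The pair of myosins IX, which carry a GTPase-activating domain beside the motor, went opposite ways. *Myo9a* was at 2.97, 3.15, 3.04 and 3.00 log2 CPM in HBB Ps against 2.51, 2.57, 2.44 and 2.11 in HBB CB, and it rose by 0.62 ± 0.12 (adjusted p = 0.00019) and by 0.77 ± 0.12 (adjusted p = 2.75e-05) in the Pkp4 cUTR line. *Myo9b*, which is more abundant, was at 7.30, 7.26, 7.23 and 7.21 in HBB Ps against 7.73, 7.75, 7.74 and 7.53 in HBB CB, and it fell, at −0.44 ± 0.09 (adjusted p = 0.000356) and −0.38 ± 0.09 (adjusted p = 0.00131). In the HBB line neither gene's fractions overlapped. *Myo19*, a motor on mitochondria, fell, at −0.47 ± 0.13 and −0.63 ± 0.13 (adjusted p = 0.00457 and 0.000568).

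*Myo7a*, a motor known from the hair cells of the ear, fell, at −0.62 ± 0.16 (adjusted p = 0.00243) and −0.47 ± 0.18 (adjusted p = 0.0353), and its second call was lost without Pkp4 cUTR CB 2 (0.0547), CB 3 (0.151), Ps 1 (0.0752), Ps 2 (0.103) or Ps 3 (0.0785). *Myo18a* rose in the HBB line by 0.35 ± 0.11 (adjusted p = 0.0113), with 0.23 ± 0.11 (adjusted p = 0.0795) in the Pkp4 cUTR line. The class I myosins *Myo1c*, *Myo1d* and *Myo1e* had negative values in both lines that did not pass, between −0.14 and −0.23, as did *Myo10*, the motor of filopodia, at −0.09 ± 0.10 and −0.06 ± 0.10. Without the CB libraries numbered 4, *Myo1c*, *Myo1d* and *Myo1e* were called lower in both lines, with −0.29 to −0.20 in the HBB line and −0.34 to −0.30 in the Pkp4 cUTR line, and *Myo10* in the HBB line, at −0.18. *Myo1a*, with 5 to 34 reads a sample, fell, at −0.90 ± 0.34 in the HBB line (adjusted p = 0.0311), a call lost without HBB CB 2 (0.0662), CB 3 (0.0673), Ps 2 (0.0687) or Ps 4 (0.111), and *Myo1h*, at −0.25 ± 0.18 and −0.05 ± 0.17, did not pass (adjusted p = 0.232 and 0.815).

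The remaining actin-related proteins work in other machines. *Actr1b* and *Actr10*, subunits of the dynactin complex that links dynein to cargo, rose in the HBB line by 0.41 ± 0.08 and 0.20 ± 0.06 (adjusted p = 0.000246 and 0.014), and *Actr1b* also rose in the Pkp4 cUTR line by 0.27 ± 0.08 (adjusted p = 0.00644). *Actr10*, at 0.12 ± 0.06 (adjusted p = 0.11) in the Pkp4 cUTR line, turned to −0.04 and −0.14 with reads scaled to totals, uncalled. *Actr1a*, the other dynactin ARP1, did not pass, at −0.05 ± 0.06 and −0.02 ± 0.06. *Actr5*, *Actr6* and *Actr8* encode parts of chromatin remodellers in the nucleus. *Actr5* was at 3.84, 3.95, 3.86 and 3.84 log2 CPM in HBB Ps against 4.52, 4.51, 4.57 and 4.67 in HBB CB. It fell, at −0.69 ± 0.08 (adjusted p = 6.02e-07) and −0.51 ± 0.07 (adjusted p = 1.51e-05), the largest fall among members with a mean log2 CPM above 1 in the HBB line. *Actr6* rose in the Pkp4 cUTR line by 0.62 ± 0.17 (adjusted p = 0.00389) from 40 to 77 reads a sample, with 0.33 ± 0.18 (adjusted p = 0.125) in the HBB line. *Actr8* did not pass, at −0.13 ± 0.07 and −0.10 ± 0.07 (adjusted p = 0.137 and 0.247).

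The ratio of 2 related RNAs within the same sample does not depend on the scaling of the library, and it shows unequal change without saying which RNA moved. For 15 pairs, the log2 ratio was compared between fractions in each line and between lines in each fraction, by a two-sided exact permutation test of 4 against 4 samples, whose smallest p is 0.0286. Of the 60 differences 11 reached that p, and after the Benjamini-Hochberg adjustment over the 60 none passed (smallest adjusted p = 0.156).

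For *Actr2* against *Actr3* the fractions did not overlap in either line. The log2 ratio was −1.99, −1.94, −2.23 and −2.07 in HBB Ps against −2.33, −2.61, −2.53 and −2.75 in HBB CB. The other line was at −2.08, −1.88, −1.83 and −2.03 in Ps against −2.33, −2.60, −2.74 and −2.39 in CB. Every Ps sample was above every CB sample, with a difference of 0.50 in the HBB line and 0.56 in the Pkp4 cUTR line (exact permutation p = 0.0286 each).

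*Actn1* against *Actn4* was lower in protrusions. The log2 ratio was −1.75, −1.57, −1.60 and −1.56 in HBB Ps against −1.22, −1.14, −1.03 and −1.17 in HBB CB. In Pkp4 cUTR samples the level was −1.37, −1.51, −1.73 and −1.44 in Ps against −0.82, −0.77, −0.85 and −1.04 in CB. The difference was −0.48 and −0.64 (exact permutation p = 0.0286 each), again without overlap. *Coro1b* against *Coro1c* was the third pair without overlap in either line, with differences of −0.45 and −0.33 (exact permutation p = 0.0286 each).

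*Actb* against *Actg1* had a log2 ratio of 1.09, 1.03, 0.95 and 0.73 in HBB Ps and 1.22, 1.17, 1.28 and 1.23 in HBB CB. Pkp4 cUTR samples were at 1.05, 1.11, 0.93 and 0.71 in Ps and 1.33, 1.11, 1.14 and 1.06 in CB. The ratio differed by −0.27 between Ps and CB in the HBB line (exact permutation p = 0.0286), where the fractions did not overlap, and by −0.21 in the Pkp4 cUTR line (exact permutation p = 0.0571), where they did. *Myh9* against *Myh10* differed by −0.42 and −0.51 between fractions (exact permutation p = 0.0286 and 0.0857) and *Capza1* against *Capza2* by −0.43 and −0.55 (exact permutation p = 0.0286 and 0.0857). The ratios *Pfn1* to *Pfn2*, *Tpm1* to *Tpm2*, *Arpc1a* to *Arpc1b* and *Myl12a* to *Myl12b* overlapped between fractions in both lines.

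**Figure D3:**
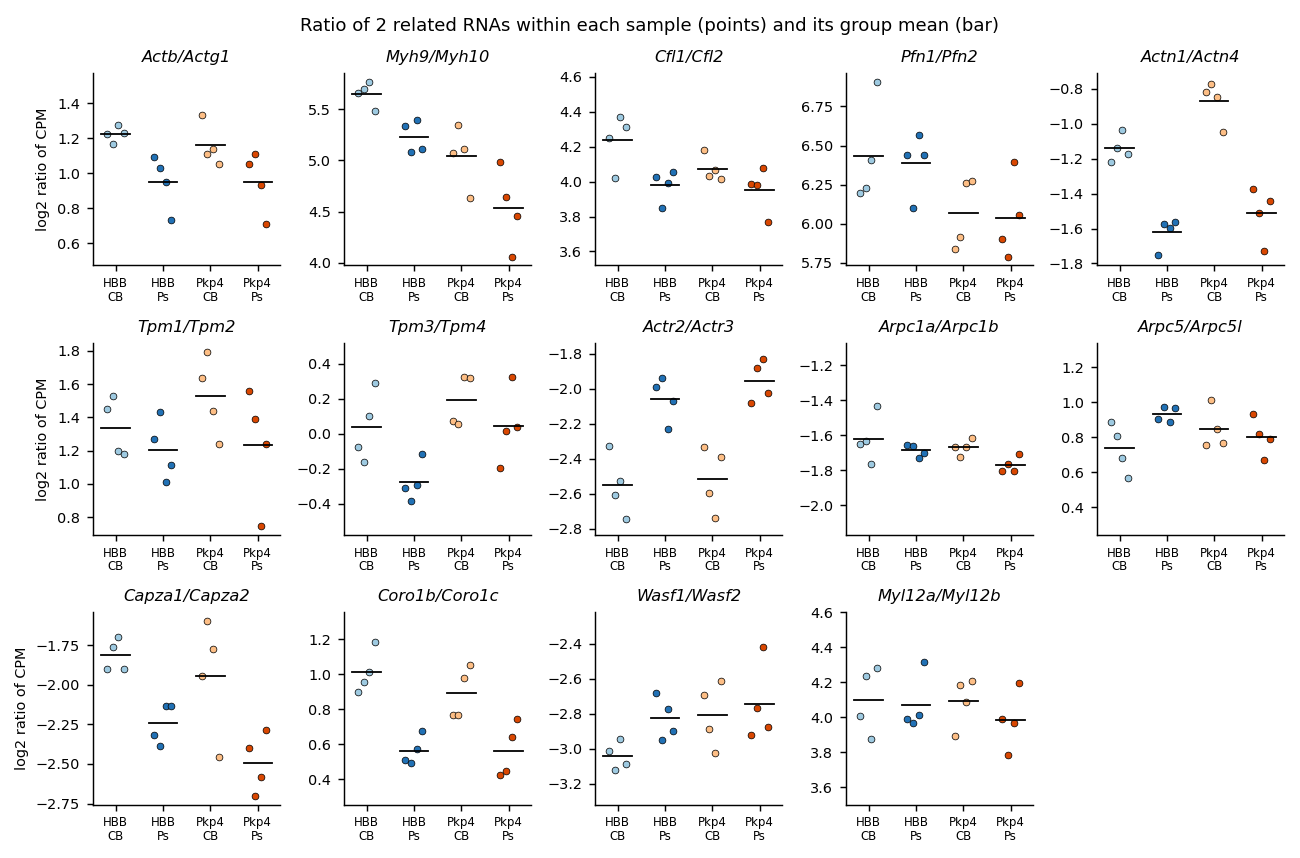
Log2 ratio of the CPM of 14 pairs of related RNAs in each of the 16 samples (points), with the mean of each group of 4 (bar). The vertical axes span different ranges around the data. *Actr2/Actr3*, *Actn1/Actn4* and *Coro1b/Coro1c* separate protrusions from cell bodies in both lines, and *Myh9/Myh10* also separates the lines.

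Compared per kb of merged exon, the order of the most abundant members in HBB CB was *Actb* (797 ± 26.4 CPM per kb, SD, n = 4), *Pfn1* (495 ± 37.9), *Cfl1* (480 ± 29.6), *Actg1* (344 ± 9.68), *Myl6* (318 ± 16.8) and *Myl12a* (196 ± 9.36). Merged exons join all annotated transcripts of a gene and can be longer than its longest transcript. They were 3.36 kb for *Myl12a*, whose longest transcript has 1937 bases, and 3.19 kb for *Myl6*, with 3040 bases. The order and its steps therefore hold for this divisor, and other lengths were not tested. *Pfn1* and *Cfl1* lay within 1 SD of each other and the SDs of *Actg1* and *Myl6* touched, while the steps from *Actb* to *Pfn1* and from *Cfl1* to *Actg1* were wider than the spread. In HBB Ps the levels were 857 ± 52.6 for *Actb*, 626.5 ± 61.3 for *Pfn1*, 607 ± 54.2 for *Cfl1*, 448 ± 54.7 for *Actg1*, 431 ± 34.4 for *Myl6* and 253.5 ± 17.0 for *Myl12a*, in the same order. *Flna* changed places, at 129 ± 11.0 CPM per kb in HBB CB, above the 102 ± 4.80 of *Actn4*, and at 83.6 ± 3.73 in HBB Ps, below the 108 ± 3.32 of *Actn4*.

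Other genes that act on actin were taken from 6 lists, of which 85 of 99 RNAs were in the table. In the HBB line 33 rose (38.8%, against 28.3% of all RNAs) and 13 fell (15.3%, against 28.9%), and in the Pkp4 cUTR line 31 rose (36.5%, against 28.2%) and 15 fell (17.6%, against 28.5%). Bundling, anchoring and side-binding proteins had 13 of 28 higher (46.4%) and 0 lower in the HBB line. In the Pkp4 cUTR line 10 were higher (35.7%) and 2 lower (7.14%), beside the same shares of all RNAs. Caldesmon (*Cald1*), which binds along filaments with tropomyosin, rose by 0.93 ± 0.09 and 1.12 ± 0.09, and *Pls3*, a bundling plastin, by 0.71 ± 0.12 and 0.98 ± 0.12 (adjusted p from 4.54e-08 to 9.32e-05). Among 12 turnover and monomer-binding genes, 4 rose (33.3%, near the share of all RNAs) and 1 fell in the HBB line and 5 rose and 1 fell in the Pkp4 cUTR line, with *Tmsb4x*, the thymosin that holds actin monomers, at 1.23 ± 0.13 and 1.22 ± 0.13 (adjusted p = 4.72e-07 and 6.78e-07).

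The slingshot phosphatases, which activate cofilin, fell, *Ssh3* at −1.46 ± 0.18 and −1.02 ± 0.20 and *Ssh1* at −0.59 ± 0.10 and −0.54 ± 0.10 (adjusted p from 3.12e-06 to 0.000286). Formins, which start unbranched filaments, had 2 of 8 higher (25.0%, also near that share) and 3 lower in the HBB line. In the Pkp4 cUTR line 3 formins were higher and 2 lower. The 12 nucleation-promoting genes had 5 higher (41.7%) and 1 lower (8.33%) in the HBB line. In the Pkp4 cUTR line 4 of them were higher (33.3%) and 1 lower (8.33%). Of all RNAs 28.3% (HBB) and 28.2% (Pkp4 cUTR) were higher, and 28.9% and 28.5% lower. Of 4 RNAs for proteins that bind beta-actin mRNA, *Igf2bp1*, the zipcode-binding protein, fell, at −0.57 ± 0.08 and −0.47 ± 0.08 (adjusted p = 7.88e-06 and 6.13e-05), *Khsrp* fell, at −0.36 ± 0.11 and −0.54 ± 0.11 (adjusted p = 0.0119 and 0.000688), and *Igf2bp2* and *Igf2bp3* did not pass.

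Base composition and length moved with the fold changes, over the members as over all RNAs. Over the 67 members the Spearman correlation of the log2 fold change in the HBB line was −0.36 with the GC content of the gene's longest transcript and −0.44 with the length of the merged exons. Over the 12321 RNAs matched to the annotation these were −0.36 and −0.25. The points share the same 8 libraries, and genes are not independent replicates. For Pkp4 cUTR they were −0.33 and −0.39 over the members and −0.35 and −0.21 over all matched RNAs. Of the 10 members with a GC content under 45%, 8 were called higher and 0 lower in the HBB line, at a median log2 fold change of 0.40. Of the 2870 RNAs of that range 1400 were called higher and 234 lower, at a median of 0.34. Of the 17 members at 55% or more, 5 were called higher and 5 lower, at a median of 0.06. Of the 2935 RNAs of that range 469 were called higher and 1359 lower, at a median of −0.24.

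The lowest GC content among the members was that of *Capza2* (36.1%) and *Cfl2* (36.9%), both higher in protrusions, while *Actr3*, at 43.8%, was not higher in either line. At 55% or more the members called higher in the HBB line were *Pfn1* (59.2%, not under quantile normalization), *Myo18a*, *Acta1*, *Myl9* and *Tpm2*, and those called lower were *Actr5* (59.1%), *Flnc* (58.4%), *Myo7a*, *Myo9b* and *Coro7*. *Myo5a* and *Myo9a*, at 14.8 and 13.0 kb of merged exons among the longest members, had GC contents of 45.7% and 42.3% and rose, whereas *Flna*, at 9.40 kb and 54.0%, fell. The part of GC content and length in the fold changes was not tested.

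**Figure D4:**
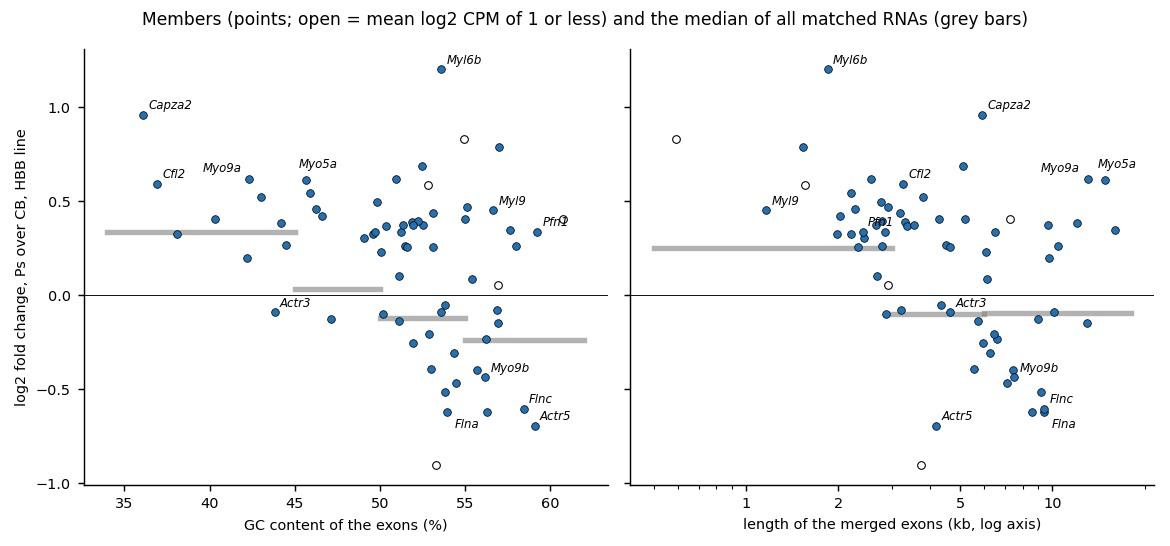
Log2 fold change of protrusions over cell bodies in the HBB line against GC content (left, %) and the length of the merged exons (right, kb, log axis). GC content is that of each gene's longest transcript, though the axis label names the exons. Points are the 67 members, open where the mean log2 CPM is 1 or less, and grey bars are medians over all RNAs matched to the annotation in each range. Members under 45% GC lie above 0 with the exception of *Actr3*.

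The partition of members between the fractions was compared between the lines as log2(Diff FC), the log2 fold change of Ps over CB in the Pkp4 cUTR line minus that in the HBB line. By it 2 of 67 members had an unadjusted p under 0.05 (2.99%, against 2.33% of all RNAs), and after the adjustment in limma 0 of the 12900 RNAs passed, of which 300 had an unadjusted p under 0.05. These 2 were *Cfl2*, at −0.22 ± 0.09 (unadjusted p = 0.0334), and *Actr3b*, at −0.41 ± 0.19 (unadjusted p = 0.0436), both with the lower value in the Pkp4 cUTR line, and neither is shown to differ between the lines. The next by p among members with a mean log2 CPM above 1 were *Actr5* at 0.18 ± 0.11, *Myo5a* at 0.20 ± 0.14 and *Arpc4* at −0.13 ± 0.10 (unadjusted p from 0.104 to 0.186). With the replicate block *Cfl2* had an unadjusted p of 0.0511, and without the CB libraries numbered 4 the values were 0.0821 for *Cfl2* and 0.100 for *Actr3b*. Leaving out 1 library at a time, *Cfl2* was at 0.05 or more in 5 of 16 fits (up to 0.0803) and *Actr3b* in 10 (up to 0.109).

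For most members the data bound how far the lines could differ. The half-width of the 95% interval of log2(Diff FC) had a median of 0.29 among the 62 members with a mean log2 CPM above 1 and reached 0.57. The interval was −0.21 to 0.20 for *Actb*, −0.18 to 0.17 for *Capzb*, −0.18 to 0.15 for *Tpm3* and −0.28 to 0.18 for *Arpc3*. It was wider for *Myh9*, at −0.62 to 0.52, whose replicates spread more.

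The lines themselves differed in the level of some members, and mostly downward in the Pkp4 cUTR line. In cell bodies 1 of 67 members was called higher in the Pkp4 cUTR line (1.49%, against 3.42% of all RNAs) and 6 lower (8.96%, against 5.55%). In protrusions 4 were called higher (5.97%, against 2.89%) and 8 lower (11.9%, against 4.26%). Of these, 1 was higher and 5 were lower in both fractions. These calls are from the fit without a replicate block. The labels number the replicates and state no pairing, but deviations from the group means were correlated between same-numbered samples of the lines. With the replicate block the calls stayed 1 and 6 in cell bodies and became 4 and 9 in protrusions, where *Coro1b* was gained (−0.23, adjusted p = 0.0440). The fits between the lines that left out 1 library, given below, had no such block.

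*Myl9*, a regulatory light chain typical of smooth muscle, was lower throughout. Its log2 CPM was 3.83, 3.77, 3.86 and 3.94 in Pkp4 cUTR CB against 4.76, 4.80, 5.02 and 4.90 in HBB CB. In protrusions it was 4.35, 4.19, 4.50 and 4.16 against 5.27, 5.10, 5.54 and 5.39. No sample of the Pkp4 cUTR line reached a sample of the HBB line in the same fraction, and the log2 fold change was −1.02 ± 0.10 (a fold of 0.492, adjusted p = 2.48e-06) in CB and −1.02 ± 0.10 (a fold of 0.492, adjusted p = 3.09e-06) in Ps. *Myo7a* was lower, at −1.15 ± 0.16 (adjusted p = 0.000102) in CB and −0.998 ± 0.18 (adjusted p = 0.00196) in Ps.

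*Actn4* was at 8.79, 8.89, 9.02 and 8.71 log2 CPM in Pkp4 cUTR CB against 9.31, 9.31, 9.34 and 9.18 in HBB CB. In protrusions it was at 9.01, 8.90, 8.97 and 8.98 against 9.43, 9.33, 9.39 and 9.35. The lines did not overlap in either fraction, and it was lower, at −0.43 ± 0.07 (adjusted p = 0.000501) and −0.41 ± 0.07 (adjusted p = 0.00104). *Myl6b* was lower, at −0.47 ± 0.10 and −0.46 ± 0.09 (adjusted p = 0.00802 and 0.00536), also without overlap. *Acta2*, the smooth muscle actin that marks activated fibroblasts, was at 6.71, 6.47, 6.96 and 6.78 in Pkp4 cUTR Ps against 7.18, 6.90, 7.50 and 7.34 in HBB Ps. It was lower, at −0.43 ± 0.12 (adjusted p = 0.0312) in CB and −0.50 ± 0.12 (adjusted p = 0.0149) in Ps. With all libraries and the replicate block the adjusted p was 0.00079 in CB and 0.00025 in Ps. Without the block the call in CB was lost when HBB CB 3 (0.103), HBB CB 4 (0.0663), Pkp4 cUTR CB 1 (0.107) or CB 2 (0.0760) was left out. The call in Ps was then lost without HBB Ps 3 (0.0579), HBB Ps 4 (0.0519) or Pkp4 cUTR Ps 2 (0.0623). The 3 smooth muscle markers of a list of 6 that were in the table, *Smtn*, *Tagln* and *Des*, had a sum of 178 to 220 CPM in Pkp4 cUTR CB and 221 to 256 CPM in HBB CB, and of 148 to 176 CPM and 182 to 205 CPM in Ps. The 3 skeletal and cardiac muscle markers summed to 31.9 to 38.4 CPM in Pkp4 cUTR CB and 44.8 to 53.2 CPM in HBB CB. In Ps they summed to 54.0 to 67.8 CPM and 69.9 to 88.6 CPM. The lower sums of this list came from *Des* alone, which is also in the smooth muscle list. Mean *Des* was 22.9 CPM in Pkp4 cUTR CB and 37.6 CPM in HBB CB, and it was lower in Ps too. *Tnnt2* and *Tnnc2*, the rest of the skeletal and cardiac list, had higher means in the Pkp4 cUTR line in both fractions. Epithelial markers were higher in the Pkp4 cUTR line, at 228 to 281 CPM in CB against 155 to 173 CPM in HBB CB. In Ps they were at 240 to 285 CPM and 159 to 192 CPM, most of it *Krt14*. The part of these lists in the results was not tested.

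Upward, *Myh10* was called in both fractions. Its log2 CPM was 4.94, 4.94, 5.01 and 4.72 in Pkp4 cUTR CB against 4.77, 4.63, 4.54 and 4.35 in HBB CB. In protrusions it was 5.25, 5.10, 5.20 and 5.29 against 4.90, 5.01, 4.63 and 4.82. The lines overlapped in CB and not in Ps. It was higher by 0.33 ± 0.10 (adjusted p = 0.0379) and 0.37 ± 0.10 (adjusted p = 0.0248), and *Myh9* was not called, at −0.27 ± 0.19 and −0.32 ± 0.19. The log2 ratio of *Myh9* to *Myh10* differed between the lines by −0.61 in CB and −0.69 in Ps, lower in the Pkp4 cUTR line (exact permutation p = 0.0286 each, adjusted p = 0.156), without overlap. The *Myh10* call was lost in 7 of the 16 fits that each left out 1 library in CB and in 5 in Ps (adjusted p up to 0.101 and 0.0878), and with reads scaled to totals in both, at 0.31 and 0.33. With all libraries and the replicate block its adjusted p was 0.028 in CB and 0.016 in Ps.

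Called in protrusions and not in cell bodies, *Myl12a* (−0.31 ± 0.07), *Tpm4* (−0.37 ± 0.11) and *Myo18a* (−0.42 ± 0.11) were lower in the Pkp4 cUTR line (adjusted p = 0.0148, 0.0415 and 0.0263), while *Myo6* and *Actr5* were higher by 0.35 ± 0.09 and 0.31 ± 0.08 (adjusted p = 0.028 and 0.0249). Their values in CB were −0.21, −0.19, −0.30, 0.24 and 0.12, none of which passed, and the difference between the fractions is log2(Diff FC), which passed for none of them. Each of these 5 calls was lost in 2 to 9 of the 16 fits that each left out 1 library (adjusted p up to 0.138, for *Tpm4* without Pkp4 cUTR Ps 3), in which the samples were not paired. With all libraries and the replicate block the 5 had adjusted p from 0.00596 (*Tpm4*) to 0.0155 (*Actr5*). The 4 calls of higher members in Ps fell to 0 without HBB Ps 1 or without HBB Ps 4, and the 8 calls of lower members to 4 without HBB Ps 3. Among the weakly expressed members, *Myh14* was lower in CB, at −1.39 ± 0.40 (adjusted p = 0.0333) and *Myl7* higher in Ps by 1.12 ± 0.30 (adjusted p = 0.0275).

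**Figure D5:**
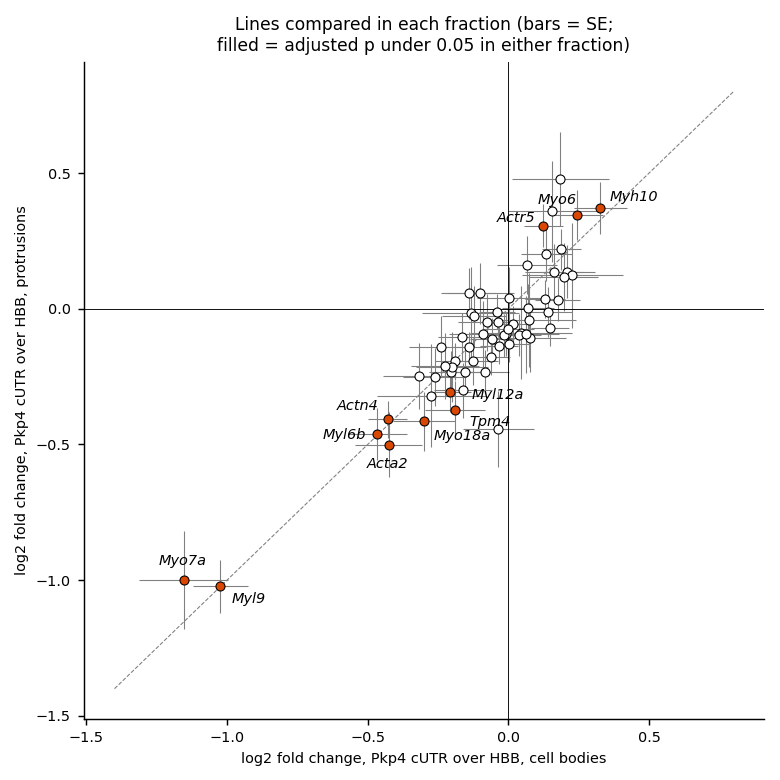
Log2 fold change of the Pkp4 cUTR line over the HBB line in cell bodies (horizontal) and in protrusions (vertical) for the 62 members with a mean log2 CPM above 1. Bars are standard errors, filled points have an adjusted p under 0.05 in either fraction, and the dashed line marks equal values. *Myl9* and *Myo7a* lie lowest, near −1 in both fractions, and *Myh10* lies highest among the filled points.

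The difference of *Actb* between the lines, at −0.19 ± 0.07 in CB and −0.19 ± 0.07 in Ps, did not pass (adjusted p = 0.0997 and 0.0997), nor with the replicate block. The lines did not overlap in CB. In Ps they all but touched, at 11.0441 log2 CPM in Pkp4 cUTR Ps 3 and 11.0443 in HBB Ps 2. *Actb* was called lower with reads scaled to totals, at −0.20 and −0.23. Of the other actin genes listed above, the lines differed for *Fscn1*, the bundling protein of filopodia, at −0.54 ± 0.08 in CB and −0.54 ± 0.08 in Ps (adjusted p = 0.00023 and 0.000294), for *Twf2*, a twinfilin, by −0.76 ± 0.11 and −0.69 ± 0.11 (adjusted p = 0.000153 and 0.000541) and for *Mylk*, the kinase that phosphorylates regulatory light chains, by −0.74 ± 0.15 and −0.90 ± 0.17 (adjusted p = 0.00305 and 0.00322). Among those called, the largest differences were in RNAs of a low level. *Lcp1*, the plastin of blood cells, was lower, at −1.76 ± 0.22 and −1.83 ± 0.22 (adjusted p = 2.67e-05 and 3.3e-05), and *Marcks*, which ties actin to the membrane, was higher by 1.45 ± 0.22 and 1.43 ± 0.24 (adjusted p = 0.000234 and 0.0011). In all, 2 of these 85 RNAs were higher (2.35%, against 3.42% of all RNAs) and 10 lower (11.8%, against 5.55%) in CB, and 3 higher (3.53%, against 2.89%) and 9 lower (10.6%, against 4.26%) in Ps.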

How the data were processed

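RNA from 16 samples was sequenced as paired ends on a HiSeq2500. The authors demultiplexed the reads with bcl2fastq 1.8.4, aligned them to mm10 with STAR 2.4.2a in 2 passes and counted fragments per gene, and the log2 CPM values in the table they deposited come from voom in limma 3.26.1, for RNAs above an expression cutoff. The strand setting of the counting is not given in the sources used here, so reads of genes that overlap on opposite strands cannot be told apart. The table holds 12900 RNAs.

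Since each deposited log2 CPM is a function of a read count with an offset of 0.5, the reads were recovered, and 100% of the values came out whole within 0.01. Voom weights and limma 3.58.1 (R 4.3.3) were then run on these reads with the authors' scaled library sizes and 4 group means, and p-values were adjusted by Benjamini-Hochberg over all 12900 RNAs. The code was tested on simulated data. The comparisons were Ps over CB in each line, their difference (log2(Diff FC)), and the Pkp4 cUTR line over the HBB line in each fraction. The values limit precision through the reads behind them, and intervals cover the spread between samples, not a bias of the library preparation. Exon length, GC content (of each gene's longest transcript) and overlaps are from GENCODE vM21 (GRCm38), which matched all 67 members and 95.5% of all RNAs.

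The members and gene lists were chosen with earlier results of these data known. Among members with a mean log2 CPM above 1, those described in full were the 10 highest and 10 lowest called in each line, the 5 smallest p for log2(Diff FC), the 5 largest rises and 5 largest falls called between the lines, both genes of each ratio, and fixed genes of each role. The others are named to account for the members. The values of 1 member and of 1 gene list are not reported here, though both stay in the fits and in the totals. Whether replicate numbers pair samples was checked by the correlation of deviations from the group means over 10154 RNAs. It was 0.33 or more for each same-numbered pair of the lines in CB and 0.20 to 0.39 in Ps, so the numbers were taken to pair the lines. Between fractions it was 0.05 to 0.39 in the HBB line and −0.36 to 0.0025 in the Pkp4 cUTR line. The HBB range overlaps that of the lines in Ps, so whether the numbers pair the HBB fractions is uncertain. Between fractions the numbers were not used as pairs in the main fits. Alternatives were total scaling, median centring, quantile normalization, no precision weights, log2(CPM + 1), a filter at a mean log2 CPM of 0.5, a replicate block, leaving out both CB libraries numbered 4, and leaving out each library in turn.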

Additional observations from a re-analysis of the deposited data

Results flagged for a closer look

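Within groups of 4 samples, 1 sample lay far from the other 3 in 10 of the 188 groups tested over 47 named members, where chance marks about 1 group in 20. The number given is the gap to the nearest sample as a share of the range of the group. *Myo9b* was lowest in HBB CB 4 (0.928) and *Myo18a* lowest in Pkp4 cUTR CB 4 (0.855, at 6.56 against 7.002 to 7.077), whereas *Myo5a* was highest in Pkp4 cUTR CB 4 (0.829). These 3 are in the CB libraries that stood apart over all RNAs. *Acta1* (0.889) and *Myl12b* (0.890) were highest in Pkp4 cUTR CB 1. In HBB Ps 2, *Actr5* (0.839) and *Myo6* (0.863) were highest and *Coro7* (0.836) was lowest. In HBB CB 3, *Myo6* was lowest (0.911) and *Myo7a* highest (0.889).

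The log2(Diff FC) had an unadjusted p under 0.05 for *Cfl2*, at −0.22 (unadjusted p = 0.0334), and for *Actr3b*, at −0.41 (unadjusted p = 0.0436). Neither passed the adjustment in limma over 12900 RNAs, in which no RNA did, so no difference between the lines is shown, and 2 of 67 members (2.99%) is near the 2.33% of all RNAs. Leaving out 1 library at a time put the p at 0.05 or more in 5 of 16 fits for *Cfl2* and in 10 for *Actr3b*.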

How the results depend on the processing

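Scaling mattered most. With reads scaled to each sample's total, members called higher and lower in protrusions became 15 and 22 (HBB) and 10 and 22 (Pkp4 cUTR), and those higher in the Pkp4 cUTR line became 0 in CB and 1 in Ps. The median log2 fold change of Ps over CB of all RNAs moved to −0.23 (HBB) and −0.25 (Pkp4 cUTR) under that scaling. Median centring left 7 called lower in the Pkp4 cUTR line. *Actb* turned to −0.13 and −0.16 (HBB, Pkp4 cUTR) with total scaling and to −0.64 and −0.56 with quantile normalization. *Cfl1* turned to −0.22 and −0.28 and *Pfn1* to −0.0822 and −0.0601 with quantile normalization, and in the Pkp4 cUTR line to −0.00897 and −0.00393 with total scaling. *Tpm3* turned to −0.00656 and −0.0485 and *Coro1c* (Pkp4 cUTR) to −0.0412 with total scaling. Quantile normalization gave 31 and 14 calls (HBB) and 32 and 13 (Pkp4 cUTR). For protrusions over cell bodies, where the numbers were not taken as pairs, the replicate block gave 35 and 9 calls in the HBB line and 34 and 10 in the Pkp4 cUTR line, and it left 1 member under an unadjusted p of 0.05 for log2(Diff FC). In the comparisons of the lines, which the numbers were taken to pair, the replicate block gained *Coro1b* in Ps and changed no other call. With a sign-change test within replicate numbers, 0 of 60 ratios could pass, since its smallest p is 0.125.

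Leaving out each library in turn gave 33 to 37 higher and 9 to 12 lower in the HBB line, 30 to 34 and 7 to 15 in the Pkp4 cUTR line (7 without Pkp4 cUTR CB 2), 0 to 3 for log2(Diff FC), 0 to 1 higher and 4 to 6 lower between the lines in CB, 0 to 4 and 4 to 10 in Ps, and 8 to 13 ratios at an unadjusted p under 0.05. In all 16 of these fits, 31 of 37 higher and 8 of 11 lower calls held in the HBB line, and 27 of 34 and 7 of 11 in the Pkp4 cUTR line. Between the lines none of the higher calls did, and of the lower ones 4 of 6 in CB and 4 of 8 in Ps did, namely *Myl9*, *Myo7a*, *Myl6b* and *Actn4* in both. Without both CB libraries numbered 4 the counts were 35 and 15 (HBB) and 33 and 15 (Pkp4 cUTR). Depth limits members such as *Myh14*, with 3 to 18 reads a sample.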
